A study of Mus musculus with 4 samples.

Results

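Subset s1 is a group of CD4 T cells from the mesenteric lymph nodes (mLN) of mice that the authors' second clustering set apart and that is named here after its number. Its members were all cells that passed the authors' filter and carried the subset value s1, which came to 1830 of 16948 kept cells, or 10.8%. They were 20.2% of the 9041 kept cells with a subset value, and 1757 of them (96.0%) lay in cluster 0 of the authors' first clustering. The marker genes given for the subset were Gata1, Ly6c1, Igfbp4, Treml2 and Bcl2.

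The study compared 4 groups of male mice, each profiled as 1 library of 10x 3′ v3 single-cell RNA sequencing. Colonized Foxp3CNS1- mice lacked the CNS1 element of Foxp3 and had been given gut bacteria in feces of specific-pathogen-free (SPF) donors 9 days earlier, and germ-free Foxp3CNS1- mice lacked the element and stayed germ-free. Colonized Foxp3GFP and germ-free Foxp3GFP mice had the intact element and otherwise the same treatments. Every library came from the pooled mLN of 3 mice, in which GFP-positive (Foxp3 reporter) and GFP-negative CD4 T cells were sorted and mixed in equal parts (50% each), with about 5000 cells targeted. The GFP status of a cell is not recorded in the tables used here, and the age of the mice was not given in the sources used here.

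Regulatory T (Treg) cells restrain immune responses and depend on the transcription factor Foxp3. The CNS1 enhancer lies in an intron of Foxp3 and contributes to the generation of Treg cells outside the thymus, for example in the gut and its lymph nodes. Resting Treg cells resemble naive T cells in that they circulate through lymph nodes, which they enter with the chemokine receptor Ccr7 and leave with the lipid receptor S1pr1, and they depend on interleukin-2 (IL-2) and on Bcl2 for survival. Effector Treg cells lose these homing molecules and carry activation and tissue receptors instead.

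The s1 cells numbered 590 in colonized Foxp3CNS1-, 416 in germ-free Foxp3CNS1-, 416 in colonized Foxp3GFP and 408 in germ-free Foxp3GFP. Their summed counts of unique molecular identifiers (UMIs, each standing for 1 captured RNA molecule) ran from 1076114 to 1818934, and the median per cell was 2750 in colonized and 2213.5 in germ-free Foxp3CNS1-, and 2913.5 in colonized and 2364 in germ-free Foxp3GFP. The germ-free libraries were the shallower ones in both genotypes. Among all kept cells, 157 barcodes occurred in more than 1 library, and among s1 cells alone 3 barcodes did. Levels are given as CPM, the UMIs of a gene per 1e+06 UMIs of the cells named. Intervals are exact 95% intervals (Poisson for a level, Clopper-Pearson for a share or a ratio), and they cover counting error only. With 1 library per group no comparison between groups has a replicate or a test, and library, preparation and group cannot be told apart. How many of the sorted cells fell into s1 was not compared between libraries, since these shares are set by the sort, and some leading genes of s1 had unequal levels among the libraries in cells outside s1 too.

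The label of a resting Treg subset was checked against marker genes. The T cell receptor component Cd3d had 1101 CPM in s1 and 1200 in the other subset cells, and Cd4 had 130.7 and 150.5 CPM in s1 and the other subset cells. Foxp3 had 140.8 CPM in s1 against 40.4 in the cells without a subset value. Of the s1 cells, 24.2% (20.8 to 27.9) had at least 1 Foxp3 UMI in colonized Foxp3CNS1-, 22.6% (18.7 to 26.9) in germ-free Foxp3CNS1-, 32.7% (28.2 to 37.4) in colonized Foxp3GFP and 27.9% (23.6 to 32.6) in germ-free Foxp3GFP. In the naive-like clusters 1 and 2 of the first clustering the shares ran from 3.18% to 7.02% over the libraries. With every cell thinned to 1000 UMIs the s1 shares were 11.0% in colonized and 10.8% in germ-free Foxp3CNS1-, and 17.1% in colonized and 15.2% in germ-free Foxp3GFP. Foxp3 was thus detected more often in s1 than in the naive-like cells of every library, and most s1 cells had no Foxp3 UMI at this depth.

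A wider set of 4 Treg genes was seen in most s1 cells. At least 1 UMI of Foxp3, Il2ra (the IL-2 receptor alpha chain), Ikzf2 (Helios) or Ctla4 (an inhibitory receptor) was found in 64.2% (60.2 to 68.1) of s1 cells in colonized Foxp3CNS1-, 64.2% (59.4 to 68.8) in germ-free Foxp3CNS1-, 75.5% (71.1 to 79.5) in colonized Foxp3GFP and 77.5% (73.1 to 81.4) in germ-free Foxp3GFP. Naive-like cells had 10.3% to 19.1%, at median depths of 2494 to 2856 UMIs. The shares in subset s0, whose median depths of 1771.5 to 2303.5 UMIs were lower, were 87.6% to 91.5%. By these genes s1 lay between naive-like cells and s0, and both Foxp3CNS1- libraries had lower s1 shares than both Foxp3GFP libraries. Both held for subset s2 as well. Its shares were 63.4% in colonized and 67.7% in germ-free Foxp3CNS1-, and 74.2% in colonized and 81.6% in germ-free Foxp3GFP. Thinned to 1000 UMIs the s1 shares were 41.8% in colonized and 45.2% in germ-free Foxp3CNS1-, and 50.7% in colonized and 61.2% in germ-free Foxp3GFP.

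Gata1 set s1 apart most clearly among the marker genes. Gata1 encodes a transcription factor best known from red blood cell, megakaryocyte and mast cell development (mm10 chromosome X, 7959260 to 7978071, minus strand). Its level in s1 was 42.9 CPM (33.9 to 53.5) in colonized Foxp3CNS1-, 43.6 (32.1 to 58.0) in germ-free Foxp3CNS1-, 59.4 (46.9 to 74.1) in colonized Foxp3GFP and 47.4 (35.3 to 62.3) in germ-free Foxp3GFP. The 4 intervals overlapped. Against the other subset cells of each library the log2 ratio was 1.25 to 1.61, with a lowest value of 0.65 when cells were thinned to 1000 UMIs, and a Gata1 UMI was found in 12.0% of s1 cells against 5.28% of the other subset cells. Pooled over libraries, the order of subsets was s1 with 48.1 CPM, s2 with 34.2, s3 with 29.9, s4 with 21.9 and s0 with 19.0, and the cells without a subset value had 14.8. In each of the 4 libraries s1 was the highest of the subsets s0 to s7. These values describe the subset and are no test of it, because the clustering used the same genes.

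Markers of the cells in which Gata1 is best known were nearly absent from s1. Of 13 erythroid genes looked for, 3 were in the deposited table, and their summed level in s1 was 4.40 CPM in colonized Foxp3CNS1-, 10.2 in germ-free Foxp3CNS1-, 6.85 in colonized Foxp3GFP and 4.65 in germ-free Foxp3GFP. Hbb-bt, a beta-globin gene, was at 0 in 3 of the 4 libraries and had 2 UMIs in colonized Foxp3GFP. Of 12 megakaryocyte, mast cell and eosinophil genes, 1 was in the table, at no more than 0.929 CPM in any library. Of 15 genes that encode partners or well-known targets of Gata1, 8 were measured. Ldb1, an adaptor protein of Gata1 complexes, and Lyl1, a related helix-loop-helix factor, were higher in s1 than in the other subset cells in all 4 libraries, with pooled log2 ratios of 0.18 and 0.45. Cbfb, a partner of the Runx factors, and Gata3, a T cell relative of Gata1, were lower in all 4, with -0.51 and -0.08. Over all 10417 genes measured in that comparison, 9.23% were higher and 29.5% were lower in all 4 libraries.

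Ly6c1 and Igfbp4 also marked naive-like T cells. Ly6c1 (chromosome 15, 75044018 to 75048830, minus strand) encodes a lipid-anchored surface protein found on naive and memory T cells, and it has a near-identical neighbour, Ly6c2, so reads could be split between them. Ly6c1 had 106.9 CPM in s1, but 154.9 in s3 and 155.7 in the cells without a subset value. Igfbp4 (chromosome 11, 99041244 to 99054392, plus strand), which encodes a secreted protein that binds insulin-like growth factors, had 101.6 CPM in s1, 137.8 in s3 and 499 in the cells without a subset value. Ly6c1 had 47.7 CPM and Igfbp4 49.9 CPM in the pooled other subset cells, so that s1 lay above the pooled subsets and below s3 for both.

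Treml2 and Bcl2 were at about the same level in s1, s3 and the cells without a subset value. Treml2 (chromosome 17, 48299498 to 48312533, plus strand), a receptor of the TREM family on lymphocytes and myeloid cells, had 56.6 CPM in s1, 54.4 in s3 and 56.5 in the cells without a subset value, against 28.6 in the pooled other subset cells. Bcl2 (chromosome 1, 106538178 to 106714274, minus strand), which blocks the mitochondrial pathway of cell death, had 469 CPM in s1, 443 in s3, 397.5 in s2 and 421 in the cells without a subset value, against 256 in the pooled other subset cells. Among the subsets s0 to s7, s1 was the highest in 3 of 4 libraries for Treml2, in 2 for Bcl2, in 1 for Igfbp4 and in none for Ly6c1.

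**Figure D1:**
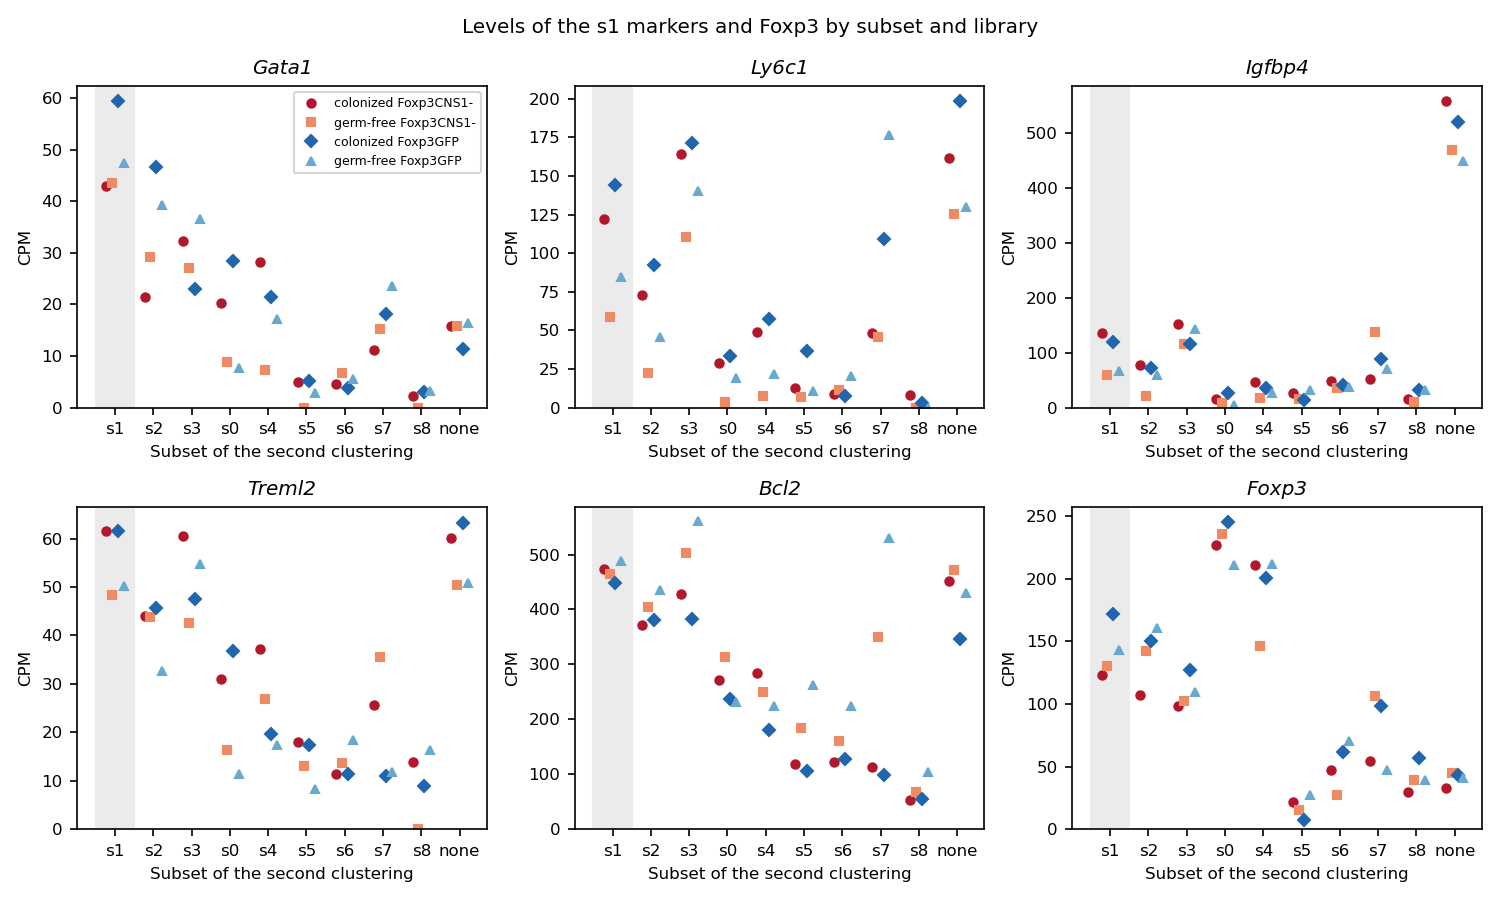
CPM of the 5 markers and of Foxp3 (vertical axes) in the subsets of the second clustering and in the cells without a subset value (none), with 1 point per library and s1 shaded; the smallest subset, s9, is left out. Gata1 was highest in s1 in every library, whereas s1 was below s3 for Ly6c1 (pooled 106.9 CPM in s1 and 154.9 in s3) and below the cells without a subset value for Igfbp4 (101.6 CPM in s1 and 499 in those cells).

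Genes detected in the same cells as Gata1 or Ly6c1 were counted. Among s1 cells thinned to 1000 UMIs and pooled over libraries, 42.9% (32.5 to 53.7) of the 91 cells with a Gata1 UMI also had an Ikzf2 UMI, against 28.0% (25.9 to 30.2) of the 1737 cells without. Foxp3 was detected in 18.7% (11.3 to 28.2) of the cells with Gata1 and in 11.2% (9.78 to 12.8) of those without. Of the 138 cells with a Ly6c1 UMI, 61.6% (52.9 to 69.7) had a UMI of Klf2, a transcription factor of lymph node recirculation, against 39.3% (37.0 to 41.7) of the cells without Ly6c1. For Foxp3 the share hardly differed by Ly6c1, with 12.3% (7.34 to 19.0) against 11.5% (10.1 to 13.2). Among pairs of markers, Ly6c1 was detected in 15.4% (8.67 to 24.5) of cells with Gata1 and 7.14% (5.97 to 8.45) of those without. Igfbp4 was detected in 8.70% (4.57 to 14.7) of cells with Ly6c1 and 6.63% (5.49 to 7.92) of those without, and these intervals overlapped. Cells of 1 library share their source and the libraries differ in Ly6c1, so these shares are a description.

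Lymph node homing and quiescence genes were higher in s1 than in the other subset cells. Of 20 genes of that list, 17 were higher in all 4 libraries, against 9.23% of all genes. None was lower in all 4, against 29.5% of all genes. The median pooled log2 ratio was 0.45, against -0.12 over all genes measured. The exceptions were Tcf7, Cd27 and Ly6c2, whose direction differed between libraries. Ccr7 had 218 CPM in s1 against 135 in the other subset cells, with a log2 ratio of 0.60 to 0.83 over the libraries. Klf2 had 670 against 429 CPM (0.49 to 0.79). S1pr1, the exit receptor, had 118 against 70.0 CPM. The 15 genes most clearly higher in s1 than in the other subset cells also included Smad7, an inhibitor of TGF-beta signalling, and Il6ra, the IL-6 receptor. Others were Pik3ip1, an inhibitor of phosphoinositide 3-kinase, Dbp, a clock-controlled transcription factor, and Kdm7a, Kbtbd11 and Nsg2. Several were not particular to s1. Pik3ip1 had 93.3 CPM in s1, 90.9 in s2 and 102.7 in s3. Subset s3 had 84.3 CPM of Il6ra, 101.8 of Kbtbd11 and 217 of Ccr7, against 85.3, 102.5 and 218 in s1. Dbp had 40.1 CPM in s1 and 40.0 in s2. Smad7, Nsg2 and Kdm7a were lower in both s2 and s3 than in s1.

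Effector and proliferation genes were lower in s1. Of 30 effector Treg genes, 25 were lower in all 4 libraries, against 29.5% of all genes. None was higher in all 4, against 9.23% of all genes, and the median was -1.24. Lgals1 (galectin-1) had 194 CPM in s1 against 659 in the other subset cells, with a log2 ratio of -1.89 to -1.49 over the libraries. Lag3, an inhibitory receptor, had 59.8 against 199 CPM (-2.21 to -1.33) and Pdcd1 (PD-1) had 30.8 against 98.9 CPM (-2.26 to -1.29). Il10, an immunosuppressive cytokine, had 3 UMIs among all s1 cells. All 11 proliferation genes were lower in all 4 libraries, with a median of -3.50. Mki67 had 15 UMIs in s1 and 846 in the other subset cells. By subset it had 2.84 CPM in s1, 2.91 in s2, 4.28 in s3 and 4.07 in s0, but 246 in s8. Its low level was thus shared by s1, s2, s3 and s0. Lgals1 had 132 CPM in s2 and 361 in s3, Lag3 had 104 in s2 and 50.1 in s3, and Pdcd1 had 54.5 in s2 and 21.1 in s3.

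The Treg core list held genes of both directions. Of 18 genes, 7 were higher in all 4 libraries, against 9.23% of all genes, and 7 were lower in all 4, against 29.5% of all genes, with a median of 0.16. Those higher were Foxp3, Il2ra, Il2rb, Izumo1r (folate receptor 4), Nrp1 (neuropilin-1), Gpr83 and Socs2. Those lower were Ctla4, Ikzf2, Tnfrsf18 (GITR), Tnfrsf4 (OX40), Tnfrsf9 (4-1BB), Capg and Nt5e (CD73). Tnfrsf9, a costimulatory receptor of the tumour necrosis factor family, was at 53.4 CPM in s1 against 162 in the other subset cells. Il2ra and Il2rb, chains of the IL-2 receptor, were on the higher side of that pooled comparison. Among single subsets, Foxp3 had 232 CPM in s0 and 197 in s4, above the 140.8 in s1, and 17.9 in s5. Il2ra, Il2rb, Izumo1r and Socs2 were also higher in s0 and s4 than in s1, whereas Nrp1 and Gpr83 were not. Subset s2 was close to s1, with 139.6 CPM of Foxp3. Nrp1 had 81.2 CPM in s1 and 80.0 in s2, and Gpr83 had 147.6 in s1 and 148.3 in s2. Izumo1r and Il2rb were higher in s2 than in s1, and Il2ra and Socs2 were lower. Of 16 IL-2/STAT5 response genes, 8 were higher in all 4 libraries, among them Socs1, Socs2, Socs3 and Bcl2, and 3 were lower.

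Bcl2 and Mcl1 were the members of the BCL2 family that were higher in s1 in all 4 libraries, against 9.23% of all genes. Of 14 measured genes of the BCL2 family, these 2, both of which oppose cell death, had pooled log2 ratios of 0.87 for Bcl2 and 0.27 for Mcl1. In all 4 libraries 8 were lower, against 29.5% of all genes. They included the pro-survival genes Bcl2l1 with -0.74, Bcl2a1b with -0.76 and Bcl2a1d with -1.31, the death effectors Bax with -0.24 and Bak1 with -0.64, and the sensitizer Pmaip1 (Noxa) with -1.09. Bcl2a1b and Bcl2a1d are near-identical copies, so their separate values are uncertain.

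**Figure D2:**
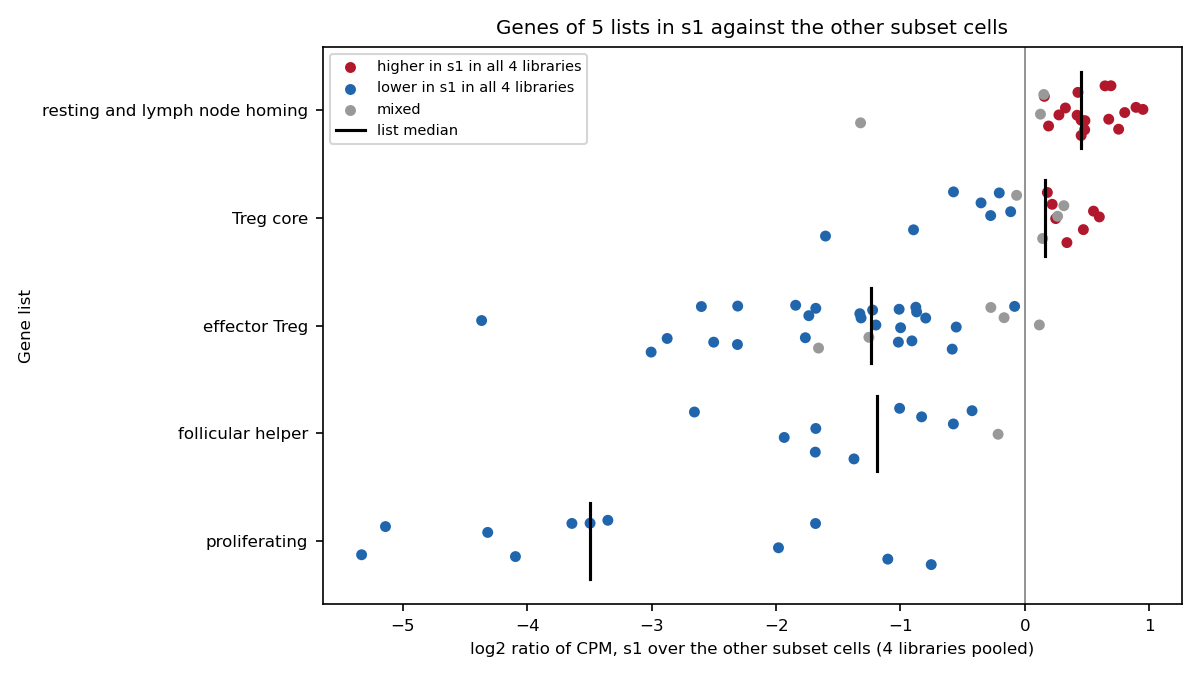
Log2 ratio of CPM, s1 over the other subset cells with 4 libraries pooled (horizontal axis), for the genes of 5 lists (1 row of points per list, vertical position within a row arbitrary); red and blue mark genes higher or lower in s1 in all 4 libraries and black bars the list medians. The resting list has its median at 0.45 and the effector Treg and proliferating lists at -1.24 and -3.50.

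Subsets s2 and s3 were nearest to s1. Over 3023 genes with at least 200 UMIs in s1, the median size of the log2 ratio between s1 and s2 was 0.0896, and it was 0.107 for s3 and 0.203 for s0. Genes higher in s1 than in s2 in every library included Ly6c1 with 106.9 against 59.9 CPM, Tmsb4x (thymosin beta 4) with 13335 against 8737, Klf2 with 670 against 421, and Rasgrp2, an activator of the integrin regulator Rap1, with 75.1 against 42.4. Tnfrsf9 had 53.4 CPM in s1 against 96.9 in s2. Ly6c1 and Klf2 were thus above and Tnfrsf9 below s2, as they were against the pooled other subset cells.

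Against s3, the recirculation genes were lower in s1. Klf2 had 670 CPM in s1 against 1023 in s3, and S1pr1 had 118 against 164. S100a6, a calcium-binding protein of activated and memory cells, had 73.2 CPM in s1 against 222 in s3, and the interferon-stimulated gene Ifit3 had 34.2 against 101.1. Higher in s1 than in s3 in every library were Foxp3 with 140.8 against 106.3 CPM, Il2ra with 178 against 131, the Helios relative Ikzf4 (Eos) with 41.6 against 28.7, Gata1 with 48.1 against 29.9 and the gut homing receptor Ccr9 with 58.5 against 30.9.

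The first comparison between groups asked how s1 cells of colonized mice differ from those of germ-free mice. Interferon-stimulated genes, which cells switch on in response to interferon, were higher in the colonized s1 cells of both genotypes. In Foxp3CNS1- 40 of 42 measured members were higher, against 44.3% of all 5325 genes measured (55.7% were lower), and 9 were higher by 2-fold or more, against 0.676% of all genes. The median log2 ratio of the list was 0.54, and that of all genes was -0.04. In Foxp3GFP 41 of 43 were higher, against 47.2% of all 4731 genes (52.8% were lower), and 13 by 2-fold or more, against 0.909%. The medians were 0.65 for the list and -0.02 for all genes.

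Isg15 encodes a ubiquitin-like protein that is attached to other proteins after interferon. It had 130 CPM (114 to 148) in s1 cells of colonized against 45.5 (33.7 to 60.1) of germ-free Foxp3CNS1- mice, and 161 (140 to 184) in colonized against 48.3 (36.1 to 63.4) in germ-free Foxp3GFP. An Isg15 UMI was found in 24.4% of s1 cells in colonized and 10.1% in germ-free Foxp3CNS1-, and in 30.3% in colonized and 9.80% in germ-free Foxp3GFP. Ifit1, whose product binds RNA that lacks the host cap mark, was at 75.9 CPM (63.7 to 89.6) in colonized against 13.0 (7.11 to 21.8) in germ-free Foxp3CNS1-, and 78.4 (64.0 to 95.1) in colonized against 15.8 (9.20 to 25.3) in germ-free Foxp3GFP. For both genes the colonized libraries lay above the germ-free libraries and their intervals did not overlap. In Foxp3CNS1- the log2 ratio of Ifit1 was 2.55, and 1.71 with cells thinned to 1000 UMIs. In Foxp3GFP it was 2.31, and 3.35 in cells with a Foxp3 UMI.

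Other members of the list were further apart. Ifit3 reached 57.2 CPM (104 UMIs) in colonized against 3.71 (4 UMIs) in germ-free Foxp3CNS1-, a log2 ratio of 3.94 (2.55 to 5.85) that was 2.36 in cells with a Foxp3 UMI, and 47.2 CPM in colonized against 10.2 in germ-free Foxp3GFP, a log2 ratio of 2.21 (1.27 to 3.28). Its copy Ifit3b makes this split uncertain. Irf7, the transcription factor that amplifies interferon production, was at 93.5 CPM in colonized against 24.1 in germ-free Foxp3CNS1- and 100.5 in colonized against 36.2 in germ-free Foxp3GFP, and its log2 ratio in Foxp3CNS1- was 1.95, and 2.84 in cells with a Foxp3 UMI. Usp18, which removes Isg15 from proteins, was at 57.2 CPM in colonized against 6.50 in germ-free Foxp3CNS1- and 54.8 in colonized against 14.9 in germ-free Foxp3GFP.

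The promoters of Isg15, Ifit1 and Ifit3 are shown because these genes were higher together in colonized s1 cells, and they were searched for the core of the interferon-stimulated response element, TTTC repeated after any 2 bases, on both strands (GAAA repeated after any 2 bases when the element lies on the other strand). The sequences are the 200 bases before the start of each gene, 5′ to 3′ on the strand of the gene, from RefSeq on GRCm38.p6, at chr4:156200819-156201018 (minus strand) for Isg15, chr19:34640689-34640888 (plus strand) for Ifit1 and chr19:34583329-34583528 (plus strand) for Ifit3. Capitals mark the matches. For Ifit1 the bases after this start were not found in a GENCODE M21 transcript, and GENCODE starts the gene at base 34640871 of chromosome 19, inside the window, so its distances from the start are less certain.
Isg15: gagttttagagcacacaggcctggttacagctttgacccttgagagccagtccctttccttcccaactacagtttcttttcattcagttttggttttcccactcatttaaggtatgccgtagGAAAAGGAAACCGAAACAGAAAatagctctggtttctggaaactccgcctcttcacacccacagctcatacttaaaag
Ifit1: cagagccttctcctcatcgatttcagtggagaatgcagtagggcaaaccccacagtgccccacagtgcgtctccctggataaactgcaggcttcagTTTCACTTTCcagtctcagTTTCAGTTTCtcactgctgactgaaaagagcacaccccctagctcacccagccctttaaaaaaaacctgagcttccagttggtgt
Ifit3: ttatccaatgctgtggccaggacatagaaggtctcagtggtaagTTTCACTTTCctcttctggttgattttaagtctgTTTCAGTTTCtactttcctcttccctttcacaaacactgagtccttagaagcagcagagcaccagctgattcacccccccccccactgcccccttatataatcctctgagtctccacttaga

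In Isg15 3 overlapping matches on the other strand ran from base -78 to base -57 relative to the start. Ifit1 had 2 matches, from -104 to -95 and from -85 to -76, and Ifit3 had 2, from -156 to -147 and from -122 to -113. In windows of the same length the motif was found in 716 of 27025 genes (2.65%), in 25 of the 47 interferon-stimulated genes with an entry in the table (53.2%) and in none of the 4 s1 marker genes with an entry. A match is a string of letters and not a site shown to be bound.

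**Figure D3:**
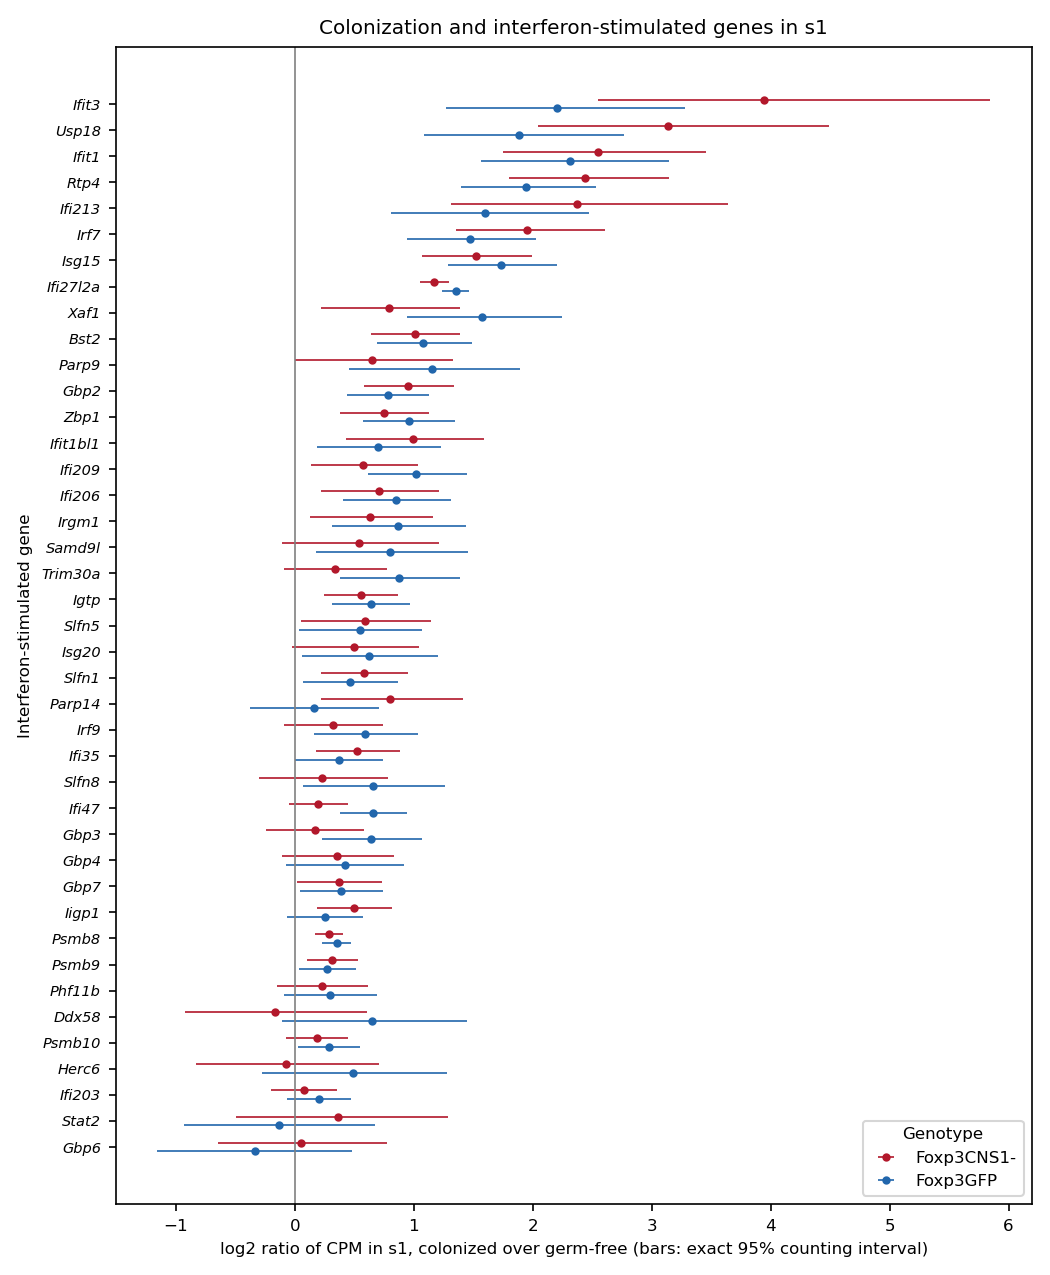
Log2 ratio of CPM in s1 cells, colonized over germ-free (horizontal axis, bars are exact 95% counting intervals), for interferon-stimulated genes measured in both genotypes (vertical axis), with Foxp3CNS1- above Foxp3GFP within a gene. Nearly all points lie right of 0, with Ifit3 at 3.94 in Foxp3CNS1- and 2.21 in Foxp3GFP.

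The UMIs of the list summed per cell were higher over most of the distribution of s1 cells. Abundant members such as Ifi27l2a, with 1275 CPM in s1, and Psmb8, with 972, weigh heavily in this sum. It therefore cannot show in how many cells the other members were higher. After thinning to 1000 UMIs, the 59 interferon-stimulated genes in the table had a median of 6 UMIs per s1 cell in colonized and 4 in germ-free Foxp3CNS1-, and 7 in colonized and 4 in germ-free Foxp3GFP. Cells with 10 or more such UMIs were 20.9% in colonized and 3.13% in germ-free Foxp3CNS1-, and 24.8% in colonized and 4.67% in germ-free Foxp3GFP. Cells with none were 5 of 589 in colonized and 8 of 416 in germ-free Foxp3CNS1-, and 0 of 416 (which allows a share of up to 0.883% by the exact interval) in colonized and 16 of 407 in germ-free Foxp3GFP. Thinning left out 1 cell in colonized Foxp3CNS1- and 1 in germ-free Foxp3GFP, and the unthinned medians were 17 UMIs in colonized and 9 in germ-free Foxp3CNS1-, and 19.5 in colonized and 9.5 in germ-free Foxp3GFP.

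**Figure D4:**
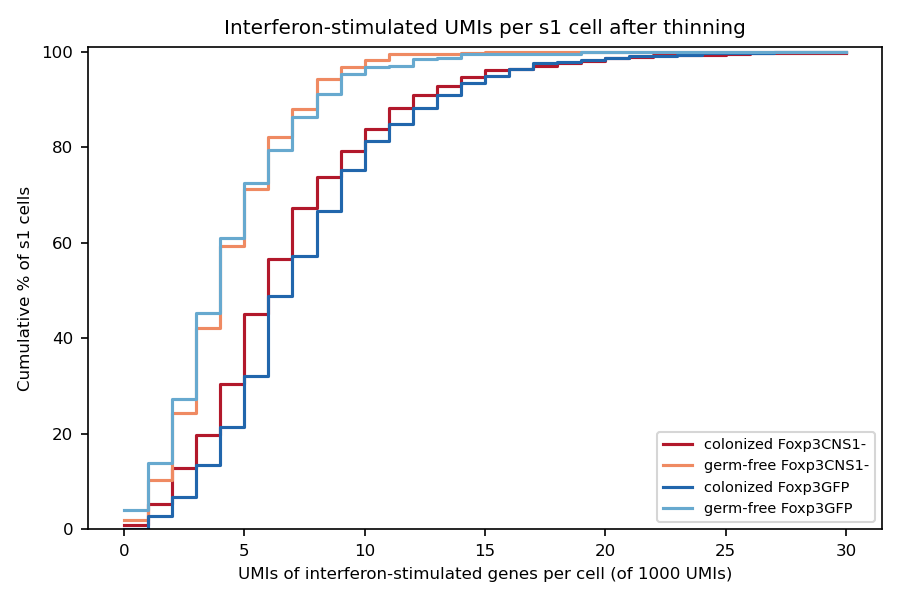
Cumulative share of s1 cells (vertical axis, %) by the number of interferon-stimulated UMIs in a cell thinned to 1000 UMIs (horizontal axis), 1 line per library. The lines of the colonized libraries run to the right of those of the germ-free libraries over most of the range, with medians of 6 in colonized Foxp3CNS1- and 7 in colonized Foxp3GFP against 4 in both germ-free libraries.

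Colonization and interferon-stimulated genes went together outside s1 as well. The list's median log2 ratio in Foxp3CNS1- was 0.54 in s1, 0.66 in s2, 0.87 in s3, 0.61 in s0 and 0.74 in the cells without a subset value. In Foxp3GFP it was 0.65 in s1, 0.98 in s2, 0.88 in s3, 0.89 in s0 and 0.96 in the cells without a subset value. The number of members measured differed between these cells, from 37 to 57, and the s1 median was the lowest in both genotypes. Whether s1 differs from the others was not tested. Between genotypes, the colonization ratio in Foxp3CNS1- minus that in Foxp3GFP had a median of -0.07 over 42 members. Of these, 25 were lower in Foxp3CNS1-, against 2383 of all 4674 genes measured in both.

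Genes outside the interferon list were also higher in colonized s1 cells of both genotypes. Ly6a (Sca-1), a surface protein of activated T cells that interferon also raises, was at 348 CPM in colonized against 111 in germ-free Foxp3CNS1- and 401 in colonized against 132 in germ-free Foxp3GFP. Plac8 was at 106 CPM in colonized against 22.3 in germ-free Foxp3CNS1- and 142 in colonized against 18.6 in germ-free Foxp3GFP, but a Plac8 UMI was found in only 8.31% of s1 cells in colonized Foxp3CNS1- and 10.3% in colonized Foxp3GFP. Socs3, an inhibitor of cytokine receptor signalling, was at 223 CPM (202 to 245) in colonized against 107 (88.1 to 128) in germ-free Foxp3CNS1- and 218 (193 to 244) in colonized against 92.0 (74.8 to 112) in germ-free Foxp3GFP. Ly6a was higher in the other subset cells too, with log2 ratios of 1.64 in s1 and 1.90 in the other subset cells of Foxp3CNS1-, and 1.60 in s1 and 2.30 in the other subset cells of Foxp3GFP.

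Among the markers of the subset, Ly6c1 and Igfbp4 were higher in colonized s1 cells. Ly6c1 was at 122 CPM (107 to 139) in colonized against 58.5 (44.9 to 74.8) in germ-free Foxp3CNS1-, and 144 (124 to 166) in colonized against 84.6 (68.1 to 104) in germ-free Foxp3GFP. Igfbp4 was at 135 CPM (118 to 153) in colonized against 59.4 (45.8 to 75.9) in germ-free Foxp3CNS1-, and 120 (102 to 140) in colonized against 66.0 (51.5 to 83.2) in germ-free Foxp3GFP. In these pairs the intervals did not overlap. For Ly6c1 the log2 ratio was 1.06 in s1, 1.69 in s2 and 1.04 in all other subset cells of Foxp3CNS1-, and 0.77 in s1, 1.01 in s2 and 0.50 in all other subset cells of Foxp3GFP. For Igfbp4 the log2 ratio was 1.18 in s1 and 0.59 in the other subset cells of Foxp3CNS1-, and 0.86 in s1 and 0.06 (-0.22 to 0.34) in the other subset cells of Foxp3GFP. In s2 the ratio of Igfbp4 was 1.85 in Foxp3CNS1- and 0.28 (-0.22 to 0.79) in Foxp3GFP.

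The remaining markers differed little with colonization. Treml2 was at 61.6 CPM in colonized against 48.3 in germ-free Foxp3CNS1- and 61.7 in colonized against 50.2 in germ-free Foxp3GFP. Bcl2 had 474 in colonized against 465 in germ-free Foxp3CNS1- and 448 in colonized against 489 in germ-free Foxp3GFP, and the intervals of each pair overlapped for both genes. Foxp3 itself was at 123 CPM (108 to 140) in colonized against 130 (109 to 153) in germ-free Foxp3CNS1-, and 172 (150 to 196) in colonized against 143 (121 to 168) in germ-free Foxp3GFP. Ikzf2 was at 359 CPM in colonized against 442 in germ-free Foxp3CNS1- and 388 in colonized against 512 in germ-free Foxp3GFP, so that Helios RNA was lower in both colonized libraries. The log2 ratio of Ikzf2 was -0.30 in s1 and -0.35 in the other subset cells of Foxp3CNS1-, and -0.40 in s1 and -0.55 in the other subset cells of Foxp3GFP.

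Ccr9 and Cd83 were lower in colonized s1 cells of both genotypes. Ccr9, the chemokine receptor for homing to the small intestine, was at 53.3 CPM (43.2 to 65.1) in colonized against 84.5 (68.0 to 104) in germ-free Foxp3CNS1- and 28.2 (19.8 to 38.8) in colonized against 78.1 (62.3 to 96.6) in germ-free Foxp3GFP. Its log2 ratio in Foxp3GFP was -1.47 (-2.07 to -0.90) in s1 and -0.25 (-0.50 to 0.00) in the other subset cells, and the difference was not tested. In s3 alone it was -1.82 (-2.98 to -0.71), and in s2 it was -0.45 (-0.91 to 0.0045). The cells without a subset value had -0.56 (-0.91 to -0.21). Cd83, an activation marker, had 39.0 in colonized against 78.0 CPM in germ-free Foxp3CNS1- and 18.3 in colonized against 85.5 CPM in germ-free Foxp3GFP. In Foxp3CNS1- Cd44, a marker of antigen-experienced cells, was at 35.2 CPM in colonized against 75.2 in germ-free s1 cells. Il4, the cytokine interleukin-4, was there at 16.5 CPM in colonized against 59.4 in germ-free s1 cells. In Foxp3GFP neither gene differed much. There Cd44 had 71 of 1313509 UMIs in colonized and 57 of 1076114 in germ-free s1 cells, and Il4 had 11 and 9 UMIs.

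The LY6 family list, which holds Ly6a and Ly6c1, had 3 of 4 measured members higher in colonized s1 cells of each genotype, with a median log2 ratio of 0.90 in Foxp3CNS1- and 0.51 in Foxp3GFP. Of all genes measured, 44.3% were higher with colonization in Foxp3CNS1- and 47.2% in Foxp3GFP, which stands beside each count of members higher with colonization here. The lists that follow had medians nearer to 0 than the interferon genes. In Foxp3CNS1- the resting and homing list had 15 of 19 members higher in colonized s1 cells, with a median log2 ratio of 0.22, and in Foxp3GFP it had 9 of 19, with a median of -0.0027. The colonization ratio in Foxp3CNS1- minus that in Foxp3GFP had a median of 0.20 over this list. Of its 19 members 16 were higher in Foxp3CNS1-, against 2291 of all 4674 genes measured in both. Among cells with a Foxp3 UMI the median in Foxp3CNS1- was 0.01. The Treg core list had 7 of 17 members higher in Foxp3CNS1-, with a median of -0.08, and 10 of 17 in Foxp3GFP, with a median of 0.11. The IL-2/STAT5 list had 7 of 14 members higher in Foxp3CNS1-, with a median of 0.01, and 9 of 13 in Foxp3GFP, with a median of 0.31. The effector Treg list had 9 of 17 members higher in Foxp3CNS1-, with a median of 0.03, and 8 of 14 in Foxp3GFP, with a median of 0.02. In Foxp3CNS1- this median was -0.45 over 11 genes with cells thinned to 1000 UMIs, -0.46 over 10 genes in cells with a Foxp3 UMI and -0.23 over the 6 genes with at least 200 UMIs. Of 8 measured heat shock genes all 8 were higher in colonized s1 cells of Foxp3CNS1- (median 0.17) and 7 in those of Foxp3GFP (median 0.18). Hspa1a, the inducible heat shock protein 70, had 26 UMIs in colonized against 1 in germ-free Foxp3CNS1- and 33 in colonized against 0 in germ-free Foxp3GFP. How the heat shock genes differed with colonization outside s1 is not reported here, so no difference is ascribed to s1 alone.

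A few cells carried the granzyme counts. Gzma had 50 UMIs in s1 cells of colonized against 2 of germ-free Foxp3GFP mice, and 96.0% of the 50 lay in 3 cells. Gzmb had 57 UMIs in colonized against 4 in germ-free Foxp3CNS1-, with 68.4% of the 57 in 3 cells. Granzymes are proteases of cytotoxic cells, and the 10 genes of the type 1 and cytotoxic list summed to 161 CPM in s1 of colonized and 136 of germ-free Foxp3CNS1-, and to 181 of colonized and 129 of germ-free Foxp3GFP. The part of such cells in the granzyme counts was not tested.

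The second comparison asked how s1 cells of Foxp3CNS1- mice differ from those of Foxp3GFP mice under the same microbiota. It shares its libraries with the first, so the ratios are not independent of those above. Counts of Foxp3 at the 3′ end do not read the CNS1 deletion and do not check the genotype. Fewer genes reached 2-fold than with colonization. In germ-free mice 26 of 4544 genes (0.572%) were higher and 10 (0.22%) lower in Foxp3CNS1- by 2-fold or more, and in colonized mice 18 of 5423 (0.332%) were higher and 7 (0.129%) lower. Counted at any size, 53.9% of genes were higher and 46.1% lower in germ-free, and 53.8% higher and 46.2% lower in colonized Foxp3CNS1- s1 cells.

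Foxp3 and the Treg core genes were slightly lower in Foxp3CNS1- s1 cells. Foxp3 had a log2 ratio of -0.48 (-0.76 to -0.21) under colonization and -0.14 (-0.48 to 0.20) without microbiota. In the other subset cells it was -0.04 in germ-free and -0.19 in colonized mice. Of 17 measured Treg core genes, 12 were lower in germ-free mice, against 46.1% of all genes, with a median of -0.14, and 14 were lower in colonized mice, against 46.2%, with a median of -0.11. The median of all genes was 0.03 in germ-free and 0.02 in colonized mice. Where Foxp3 was detected the median of the list in germ-free mice was 0.07.

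Il4 had the largest genotype ratio of the 4544 genes measured in germ-free s1 cells. It had 59.4 CPM (45.8 to 75.9) in germ-free Foxp3CNS1- against 8.36 (3.82 to 15.9) in germ-free Foxp3GFP, a log2 ratio of 2.83 (1.81 to 4.02), and an Il4 UMI was found in 10.6% of s1 cells in germ-free Foxp3CNS1- against 1.72% in germ-free Foxp3GFP. In the colonized libraries it had 16.5 CPM in Foxp3CNS1- and 8.37 in Foxp3GFP. The germ-free Foxp3CNS1- library was thus the high one. Of its 64 Il4 UMIs, 61 lay in the 322 s1 cells without a Foxp3 UMI and 3 in the 94 cells with one, and the Foxp3-detected cells held too few for a direction, with 3 UMIs in germ-free Foxp3CNS1- against 5 in germ-free Foxp3GFP. On the log2 scale the ratio was 1.26 (0.92 to 1.62) in all other subset cells and 3.41 (2.29 to 4.79) in s2.

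Il4 belongs to the follicular helper list, whose members were otherwise low in s1. The 10 genes of that list summed to 578 CPM in s1 of germ-free Foxp3CNS1- and 435 of germ-free Foxp3GFP, and to 452 of colonized Foxp3CNS1- and 383 of colonized Foxp3GFP, against 639 to 1033 in the other subset cells. In germ-free mice 5 of 6 measured members were higher in Foxp3CNS1-, against 53.9% of all genes, with a median of 0.12. The defining genes Cxcr5 had 24.1 CPM in germ-free Foxp3CNS1- against 32.5 in germ-free Foxp3GFP, Sostdc1 had 26.9 in germ-free Foxp3CNS1- against 24.2 in germ-free Foxp3GFP, and Bcl6 had 8 UMIs in germ-free Foxp3CNS1- against 3 in germ-free Foxp3GFP. Tbc1d4, a member with more counts, was higher, with 200 UMIs in germ-free Foxp3CNS1- against 117 in germ-free Foxp3GFP. The part of such cells in the Il4 result was not tested.

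The other genes named for being higher in germ-free Foxp3CNS1- s1 cells were Cxcr6, Gpr183, Id2, Txnrd2, Mir142hg, Vmp1 and H2-DMa. Cxcr6, a chemokine receptor of tissue T cells, had 39.0 CPM (28.1 to 52.7) in germ-free Foxp3CNS1- against 9.29 (4.46 to 17.1) in germ-free Foxp3GFP, and all 42 of its UMIs lay in cells without a Foxp3 UMI. Gpr183, an oxysterol receptor that positions cells in lymphoid tissue, had 119 CPM in germ-free Foxp3CNS1- against 46.5 in germ-free Foxp3GFP. Id2, an inhibitor of E-protein transcription factors, had 137 CPM in germ-free Foxp3CNS1- against 64.1 in germ-free Foxp3GFP. The log2 ratio of Cxcr6 was 2.07 in s1, 0.89 in the other subset cells and 2.97 in s2 alone, that of Gpr183 was 1.35 in s1 and 0.58 in the others, and that of Id2 was 1.10 in s1 and 0.36 in the others. Txnrd2, a mitochondrial thioredoxin reductase, had a log2 ratio of 1.62 in s1, Mir142hg of 1.34, Vmp1, a membrane protein of autophagy, of 1.06, and H2-DMa, a chain of the peptide exchanger of MHC class II, of 1.01. The genes were named for their ratio in s1, and the difference from the other cells was not tested. Where Foxp3 was detected the ratio was 0.72 for Gpr183 and 0.22 for Id2.

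Homing genes were lower in germ-free Foxp3CNS1- s1 cells. Of 19 measured members of the resting list 14 were lower, against 46.1% of all genes, with a median of -0.18. S1pr1 had 91.9 CPM (74.7 to 112) in germ-free Foxp3CNS1- against 159 (136 to 185) in germ-free Foxp3GFP. Klf2 had 531 (488 to 576) in germ-free Foxp3CNS1- against 710 (661 to 762) in germ-free Foxp3GFP. In colonized mice the same list had 6 of 19 members lower, against 46.2% of all genes, with a median of 0.02. There S1pr1 had 114 CPM in Foxp3CNS1- against 112 in Foxp3GFP. Germ-free Foxp3CNS1- was the lowest of the 4 libraries for S1pr1 and Klf2. Where Foxp3 was detected the log2 ratio of S1pr1 in germ-free mice was -0.38, against -0.79 in all s1 cells.

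Cd55 was lower in Foxp3CNS1- s1 cells under both microbiota. Cd55 encodes decay-accelerating factor, a membrane inhibitor of complement (chromosome 1, 130439027 to 130462744, minus strand). It had 12.1 CPM (6.43 to 20.6) in germ-free Foxp3CNS1- against 42.7 (31.3 to 57.0) in germ-free Foxp3GFP, and 23.6 (17.1 to 31.8) in colonized Foxp3CNS1- against 51.0 (39.5 to 64.8) in colonized Foxp3GFP. Both Foxp3CNS1- libraries thus lay below both Foxp3GFP libraries, and the intervals of neither pair overlapped. In s1 cells with a Foxp3 UMI it had 6.79 CPM in germ-free Foxp3CNS1- against 46.8 in germ-free Foxp3GFP, and 25.2 in colonized Foxp3CNS1- against 73.0 in colonized Foxp3GFP. The log2 ratio in colonized s1 cells was -1.11, and it was -0.43 when cells were thinned to 1000 UMIs. Outside s1 the other subset cells had a log2 ratio of -1.97 in germ-free mice, and of -0.32 (-0.66 to 0.03) under colonization.

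In colonized mice Gstp1 and Cd7 were lower in Foxp3CNS1- s1 cells. Gstp1, a glutathione transferase with near-identical neighbours, had 84.7 CPM (71.8 to 99.1) in colonized Foxp3CNS1- against 165 (144 to 189) in colonized Foxp3GFP. In germ-free mice it had 158 in Foxp3CNS1- and 127 in Foxp3GFP, so colonized Foxp3CNS1- was the low library. Its log2 ratio in colonized mice was -0.96, and -0.53 when cells were thinned to 1000 UMIs. Cd7, a T cell surface protein, had 31.3 CPM in colonized Foxp3CNS1- against 58.6 in colonized Foxp3GFP. In germ-free mice Cd7 had 35 of 1077162 UMIs in Foxp3CNS1- and 31 of 1076114 in Foxp3GFP. Colonized Foxp3GFP was thus the high library for Cd7. The interferon-stimulated list had 38 of 46 measured members lower in colonized Foxp3CNS1-, against 46.2% of all genes, with a median of -0.18. In germ-free mice 20 of 35 were lower, against 46.1% of all genes, with a median of -0.09.

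Apoe was the gene most above Foxp3GFP in colonized Foxp3CNS1- s1 cells, and it rested on a few cells. It had 50 UMIs in colonized Foxp3CNS1- against 5 in colonized Foxp3GFP, and 82.0% of the 50 lay in 3 cells. Cells with a Foxp3 UMI held 3 of these UMIs in colonized Foxp3CNS1- and 4 in colonized Foxp3GFP. Apolipoprotein E is made by macrophages, and 6 of 10 myeloid marker genes looked for were in the table. They summed to 36.8 CPM in colonized Foxp3CNS1-, 9.28 in germ-free Foxp3CNS1-, 9.90 in colonized Foxp3GFP and 5.58 in germ-free Foxp3GFP, and the part of such RNA was not tested. The others of the 8 named genes that were higher, among them Slc35a2, a sugar transporter of the Golgi, Acadl, an enzyme of fatty acid oxidation, and Chd7, a chromatin remodeller, had at most 35.7 CPM in s1 of colonized Foxp3CNS1- apart from Cd83, which had 39.0 CPM in colonized Foxp3CNS1- against 18.3 in colonized Foxp3GFP. The log2 ratio of Slc35a2 was 1.92, and 0.08 when cells were thinned to 1000 UMIs.

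**Figure D5:**
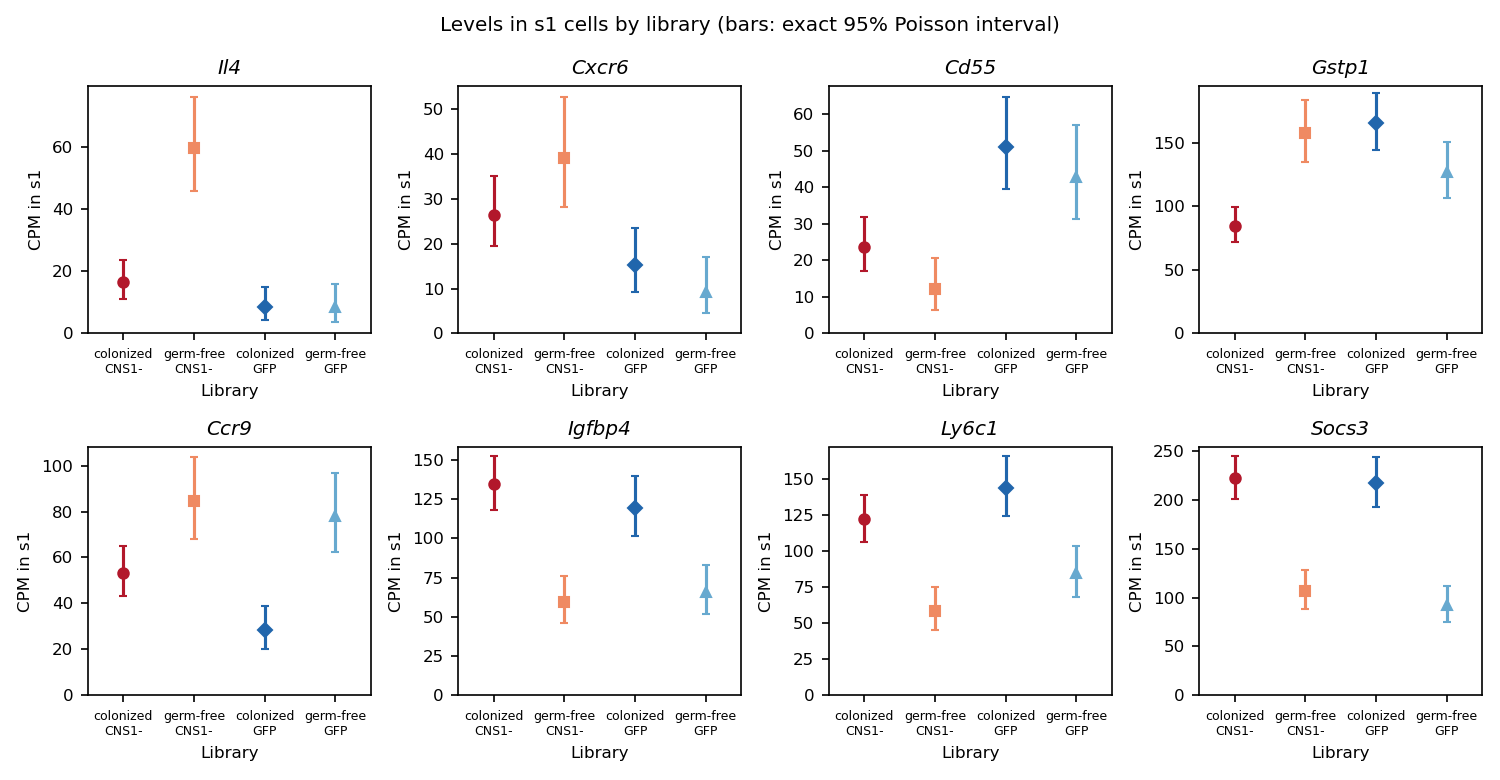
CPM in s1 cells (vertical axes, bars are exact 95% Poisson intervals) of 8 genes in the 4 libraries (horizontal axes). Il4 stands out in germ-free Foxp3CNS1- (59.4 CPM), Cd55 is lower in both Foxp3CNS1- libraries (23.6 CPM in the colonized and 12.1 in the germ-free one, against 51.0 in colonized and 42.7 in germ-free Foxp3GFP), and Igfbp4, Ly6c1 and Socs3 are higher and Ccr9 lower in the colonized libraries.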

How the data were processed

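Single-cell RNA sequencing (10x 3′ v3) of sorted mLN CD4 T cells gave 4 libraries, 1 per group. The authors deposited a table of whole-number UMI counts per cell and gene (17478 cells, 13314 genes) and a cell table with their clusters. Cell Ranger (no version), Scanpy 1.5.1 and mm10 are named per the submitters' processing notes, without clustering settings. Cells with no entry in the cell table (227) and cells that failed the authors' filter (303) were dropped, so 16948 were kept, and 3 columns of the cell table were not used. No doublet caller was run here, and no source used here says whether doublets were removed earlier.

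Counts were summed over the s1 cells of a library and scaled to CPM. Genes whose UMIs came to 50 or more over the compared pair were set against each other as log2 ratios with exact 95% Clopper-Pearson intervals, without a test, since each group has 1 library. The sums were tested on simulated data with known ratios. Shares were also computed on cells thinned to 1000 UMIs. The s1 cells were compared with the 7211 other subset cells in each library, as a description. Members and lists were chosen with earlier results of these data known. The genes named are the markers, list members, the 15 per direction most clearly different from the other subset cells in all 4 libraries among genes with a UMI in at least 10% of cells, and, per comparison, 8 per direction whose interval bound lay farthest from 0. Neither ranking took in Xist, predicted genes, Y-linked, mitochondrial or ribosomal genes, or segments of receptors and immunoglobulins. Some members of the lists are counted but not reported singly here. The genes named between s1 and s2 or s3, the split by a Foxp3 UMI, the set of 4 Treg genes and the shares of cells with both of a pair of genes were chosen after their values were seen. Other minimum counts, scaling, thinning, weights, cells and folds were tried as alternatives. Python 3.11.15, numpy 2.4.6, scipy 1.17.1, pandas 2.3.3 and matplotlib 3.10.9 were used. Positions come from GENCODE M21, and promoter sequences from RefSeq on GRCm38.p6.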

Additional observations from a re-analysis of the deposited data

Results flagged for a closer look

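Cd74, the invariant chain of MHC class II and a marker of B cells, differed in direction between germ-free and colonized mice. In colonized mice the log2 ratio of Foxp3CNS1- over Foxp3GFP s1 cells was 0.35 (0.04 to 0.67), with 128.1 CPM in colonized Foxp3CNS1- and 100.5 in colonized Foxp3GFP. In germ-free mice it was -0.69 (-1.11 to -0.29), with 77.1 CPM in germ-free Foxp3CNS1- and 124.5 in germ-free Foxp3GFP. In the other subset cells the ratio was 0.02 in colonized and 0.35 in germ-free mice. The difference was not tested.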

How the results depend on the processing

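No paired analysis was possible because each group has 1 library, and no library could be left out. Of 360 medians of gene lists under the alternatives, 349 stayed within their limits and 11 differed by more, and of 590 values of named genes 553 stayed, 33 differed by more and 4 had the opposite sign. All 4 came from using only cells with a Foxp3 UMI: Gpm6b with colonization in Foxp3GFP at 0.10, Gpm6b and Apoe between genotypes in colonized mice at -0.69 and -0.52, and Il4 between genotypes in germ-free mice at -0.52. Each rests on 3 to 6 UMIs a library. The number of genes that differed by 2-fold depended on the settings. For colonization in Foxp3CNS1- it was 67, and 357 with at least 20 UMIs, 12 with at least 200, 499 at 1.5-fold, 35 thinned to 1000 UMIs and 37 in cells with a Foxp3 UMI. For colonization in Foxp3GFP it was 75, and the same settings gave 302, 9, 462, 26 and 40. For genotype in germ-free mice 36 became 263, 2, 329, 19 and 14, and in colonized mice 25 became 238, 0, 351, 13 and 13, with 50 under equal weight per cell. The number of genes tested differs between these minimum counts by construction, and no test was run. Against the other subset cells, among the 2897 genes with a UMI in at least 10% of s1 cells, 364 were higher in s1 in all 4 libraries, with 149 after thinning, 178 under equal weight per cell, 157 in cells with a Foxp3 UMI and 225 without the cells above the 98th percentile of UMIs. Lower in all 4 were 1279, with 831 in cells with a Foxp3 UMI and 259 against s2 only. Thinned, the share of s1 cells with a Foxp3 UMI was 11.0% in colonized and 10.8% in germ-free Foxp3CNS1-, and 17.1% in colonized and 15.2% in germ-free Foxp3GFP. Median-of-ratios scaling shifted all genes by at most 0.044 on the log2 scale.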

Other observations

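MHC class I and peptide loading genes had medians near 0 with colonization in s1. With colonization 10 of 14 measured members were higher in Foxp3CNS1-, against 44.3% of all genes, with a median log2 ratio of 0.08, and 9 of 14 in Foxp3GFP, against 47.2% of all genes, with a median of 0.14. B2m, the light chain of MHC class I, was at 4032 CPM in colonized against 3716 in germ-free Foxp3CNS1- and 3969 in colonized against 3387 in germ-free Foxp3GFP. Early response genes of the T cell receptor were mixed, with 10 of 19 measured members higher with colonization in Foxp3CNS1- and 5 of 17 in Foxp3GFP, with medians of 0.01 in Foxp3CNS1- and -0.15 in Foxp3GFP.

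Mir142hg, the host transcript of a microRNA of blood cells, was lower in colonized than in germ-free s1 cells of Foxp3CNS1- mice, with a log2 ratio of -2.19 (-2.84 to -1.57) and of -1.12 in the other subset cells. In germ-free mice its ratio of Foxp3CNS1- over Foxp3GFP was 1.34.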
